A study of Mus musculus with 16 samples.

Results

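Replication-dependent histone genes supply the histones that package newly copied DNA. In the liver RNA-seq described here they are the 69 genes, of 55357 in the deposited count table, whose symbols begin with Hist1h, Hist2h, Hist3h or Hist4h, with Hist1h2al left out. They comprise 6 H1, 19 H2A, 19 H2B, 12 H3 and 13 H4 genes. Among them, Hist1h2aj and Hist3h2bb-ps are annotated as pseudogenes. By the GENCODE M21 annotation 55 of them lie in the Hist1 cluster on chromosome 13, 10 in the Hist2 cluster on chromosome 3, 3 in Hist3 on chromosome 11 and 1 in Hist4 on chromosome 6. A count was found for 59 of the 69, and 31 passed the filter on low counts and were tested.

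The 16 libraries came from untreated mouse livers in 4 groups of 4. AUG livers had the Terc genotype that the labels write as mTERC CUG/AUG, and del7 livers had mTERC 29_35del, a loss of 7 nucleotides of the telomerase RNA gene. Each line had wild types of its own, here AUG_WT and del7_WT. All mice were untreated and ate freely, and the labels used here give no age, strain, sex or batch. Whether replicates were separate animals is not in the labels, so a p-value reflects only the scatter among these 16 samples, part or all of which may be technical. Terc itself is not analysed here. RNA was total RNA depleted of ribosomal RNA, with no selection on a poly-A tail. Libraries held 7714058 to 14629022 gene counts.

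One library stood apart. In AUG_WT replicate 1, histone genes took 0.120% of gene counts (12667 counts), against 0.0199% to 0.0307% with a median of 0.0250% in the other 15. The liver label was checked against 12 hepatocyte markers, which summed to 52365 CPM against 114305 to 172841 CPM in those 15, and albumin (Alb) alone reached 32414 CPM against 68613 to 130934 CPM. Marker sums for B and plasma cells (1452 CPM against 179 to 540.2 CPM) and for T and NK cells (166 CPM against 6.98 to 31.1 CPM) were highest in that library. Counts and medians of the comparisons it enters are given with and without it.

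Core histones H2A, H2B, H3 and H4 form the nucleosome, and H1 binds the linker DNA between nucleosomes. Cells make the replication-dependent forms mainly during S phase. Their messages usually lack introns and a poly-A tail and end a few bases after a conserved stem-loop. The stem-loop is bound by the protein Slbp, which serves the cutting, export, translation and decay of the message. Some of these genes also give longer, polyadenylated messages in cells that have stopped dividing. Most hepatocytes of an adult liver are not dividing.

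The stem-loop is shown because it marks the 3′ end of these messages. The motif has GG at the start, CC at the end and TTNTNA midway with NNN on each side. Its first and last 6 bases are complementary. It was searched on the sense strand of the longest annotated transcript of each member. For other genes every protein-coding transcript was searched. The motif was in 45 of 69 members, 4 of H1, 11 of H2A, 9 of H2B, 9 of H3 and 12 of H4, and in 23 of 21834 other protein-coding genes (0.105%). The 8 forms follow, each in 1 member, from GENCODE M21 transcripts, with the stem-loop in capitals and 5 flanking bases on each side.
Hist1h1c: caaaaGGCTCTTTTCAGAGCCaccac
Hist1h3e: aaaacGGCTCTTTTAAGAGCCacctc
Hist2h2ac: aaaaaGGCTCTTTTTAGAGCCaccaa
Hist1h3g: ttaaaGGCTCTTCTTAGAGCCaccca
Hist1h4h: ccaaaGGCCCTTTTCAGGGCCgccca
Hist2h4: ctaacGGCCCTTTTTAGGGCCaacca
Hist1h4b: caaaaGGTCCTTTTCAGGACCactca
Hist1h4a: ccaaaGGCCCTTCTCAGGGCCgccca
The form shown for Hist1h1c was the commonest, in 25 members of H1, H2A, H2B and H3 and in none of H4. The form of Hist1h3e was in 6 members of H1, H2B and H3. Hist2h2ac and Hist1h3g each held a form found in no other member. H4 genes held forms of their own: that of Hist1h4h in 7 genes, those of Hist2h4 and Hist1h4b in 2 each, and that of Hist1h4a in 1.

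Many of these longest annotated transcripts do not end at the loop. A gene that also has a shorter annotated form is counted here by its longest. Of the 45, 22 ended within 100 bases after it and 23 ran on for more than 100 bases. Among the longer ones, Hist1h4c ran on for 454 bases, Hist1h4d for 770, Hist1h1c for 840 and Hist1h1e for 1153. The Hist1h4h transcript ended 46 bases after its loop and that of Hist2h2ac 57. Of the 24 with no match, several are annotated with little beyond the coding sequence, so a missing match says only that these letters are not in the annotated transcript.

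Promoters are shown because the classes differ in them. RefSeq promoters of GRCm38.p6, taken as the 250 bases before the start, matched 61 members. Both strands were searched for the box TATAAA, the box CCAAT (bound by the factor NF-Y), the octamer ATTTGCAT (bound by Oct1, the product of Pou2f1) and AAACACA, an element described in H1 promoters. CCAAT was in 50 of the 61 (82%) and in 33.8% of all 32851 promoters. It was in 6 of 6 H1, 17 of 17 H2A, 16 of 16 H2B and 8 of 10 H3 promoters, but in 3 of 12 of H4. TATAAA was in 29 members (47.5%, 12.4% of all promoters). The octamer was in 7 H2A and 6 H2B promoters and in none of H1, H3 or H4 (21.3% of members, 1.60% of all). AAACACA was in 5 of 6 H1 promoters and in 9 members (14.8%, 6.25% of all). Matches to any of these motifs are in capitals in the 5 promoters below, 1 of each class. That of Hist2h2ac spans most of the stretch between it and Hist2h2be, which starts on the other side.
Hist1h1b (chr13:21780626-21780875, minus strand): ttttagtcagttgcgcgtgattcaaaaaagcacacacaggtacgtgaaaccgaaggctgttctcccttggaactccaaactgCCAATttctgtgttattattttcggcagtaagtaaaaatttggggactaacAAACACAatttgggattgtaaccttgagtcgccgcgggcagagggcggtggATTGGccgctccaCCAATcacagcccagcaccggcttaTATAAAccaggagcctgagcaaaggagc
Hist2h2ac (chr3:96220881-96221130, minus strand): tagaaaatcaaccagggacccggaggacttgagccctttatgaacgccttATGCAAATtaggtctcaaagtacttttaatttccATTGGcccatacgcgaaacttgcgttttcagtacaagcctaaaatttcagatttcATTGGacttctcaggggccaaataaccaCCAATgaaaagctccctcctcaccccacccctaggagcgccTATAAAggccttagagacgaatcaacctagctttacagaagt
Hist1h2bb (chr13:23746484-23746733, plus strand): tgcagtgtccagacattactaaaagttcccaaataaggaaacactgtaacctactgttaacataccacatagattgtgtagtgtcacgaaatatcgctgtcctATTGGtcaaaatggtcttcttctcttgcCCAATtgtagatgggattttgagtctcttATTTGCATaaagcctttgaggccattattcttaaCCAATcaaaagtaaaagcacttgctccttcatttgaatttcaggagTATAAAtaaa
Hist1h3c (chr13:23745522-23745771, minus strand): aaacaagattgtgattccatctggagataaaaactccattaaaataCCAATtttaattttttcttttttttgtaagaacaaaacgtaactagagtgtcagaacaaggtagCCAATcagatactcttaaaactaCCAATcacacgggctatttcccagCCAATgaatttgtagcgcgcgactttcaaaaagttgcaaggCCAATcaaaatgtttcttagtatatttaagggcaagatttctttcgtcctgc
Hist1h4h (chr13:23530794-23531043, plus strand): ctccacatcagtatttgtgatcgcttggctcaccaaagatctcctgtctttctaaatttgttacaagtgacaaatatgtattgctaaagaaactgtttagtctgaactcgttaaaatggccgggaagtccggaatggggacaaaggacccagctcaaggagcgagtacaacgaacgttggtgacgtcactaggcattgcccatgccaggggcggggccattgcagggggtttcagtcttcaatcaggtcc
Hist1h1b held CCAAT 3 times counting both strands, beside AAACACA and TATAAA. Hist2h2ac and Hist1h2bb each held CCAAT, the octamer and TATAAA, and Hist1h3c held CCAAT 5 times. Hist1h4h held none of the 4 motifs.

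A few genes supplied most of the counted histone reads in the 15 libraries other than AUG_WT replicate 1. CPM are counts per 1e6 on TMM-scaled library sizes. There the 5 most counted members held 62.6% of all histone counts and the 10 most counted 82.2%. In AUG_WT replicate 1 the same 5 held 33.8% and the same 10 held 51.1%. Levels between genes are compared per kilobase of the longest annotated transcript. On that scale, pooled over the 15, Hist1h4h led at 51.1 CPM per kb, then Hist1h2bc at 37.3, Hist1h4c at 29.9, Hist1h4d at 23.2, Hist1h1c at 20.4 and Hist1h1e at 19.1. The first of the H2A genes was Hist2h2ac at 12.7 and of the H3 genes Hist1h3e at 5.3. The order depends on the annotated lengths.

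**Figure D1:**
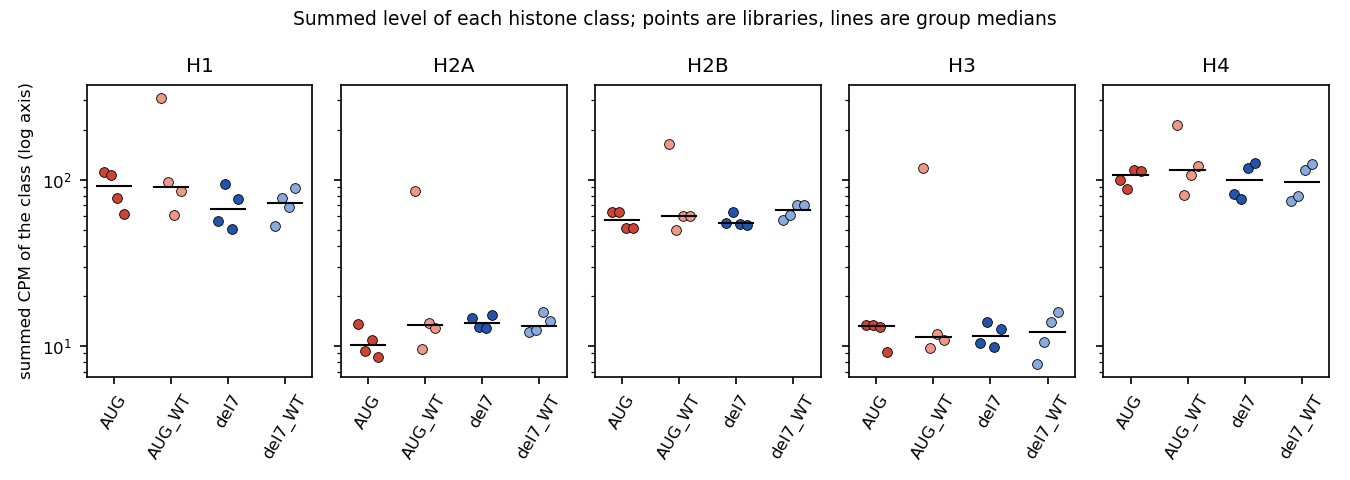
Summed CPM of the 5 histone classes (log axis) by group; each point is a library and each line the median of 4. AUG_WT replicate 1 is the highest point in every class, from 85.5 CPM for H2A to 310 CPM for H1, and the other 15 libraries lie within 8.62 to 16.1 CPM for H2A and 50.4 to 110 CPM for H1.

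H1 genes encode linker histones, and 5 of 6 were tested. Hist1h1e stood at 50.1, 47.6, 35 and 27.2 CPM in AUG and 76, 52.7, 27.4 and 37.6 in AUG_WT. Hist1h1e was at 23.2, 39, 28.6 and 38.2 CPM in del7 and 30.7, 43.5, 33.7 and 40.8 in del7_WT. Apart from AUG_WT replicate 1 all 4 groups overlapped. Hist1h1c stood at 43.5, 41.7, 35.3 and 28.3 CPM in AUG and 112, 37.4, 27.4 and 38.8 in AUG_WT. Hist1h1c was at 25.9, 45.6, 18.9 and 31.5 CPM in del7 and 15.7, 26.1, 25.6 and 37.9 in del7_WT. AUG_WT replicate 1 was highest, and the other libraries of all groups overlapped. Hist1h1d stood at 11.1, 14.4, 3.9 and 3.51 CPM in AUG and 54.8, 4.84, 3.98 and 5.43 in AUG_WT. Hist1h1d was at 2.92, 5.49, 1.63 and 3.61 CPM in del7 and 3.15, 4.74, 4.67 and 7.15 in del7_WT. For this gene AUG replicates 1 and 2 were above each of the other libraries except AUG_WT replicate 1, and the spread over the 15 was 61.9% of the mean (SD), against 23.9% for Hist1h1e. Hist1h1a and Hist1h1b were at 2.35 and 0.766 CPM pooled over the 15. Hist1h1t, the testis form, had 11 counts in all 16 libraries together.

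H2A pairs with H2B at the outside of the nucleosome core, and 5 of its 19 genes were tested. Hist2h2ac stood at 6.4, 3.47, 5.04 and 3.83 CPM in AUG and 21.5, 6.45, 7.27 and 8.14 in AUG_WT. Hist2h2ac was at 8.06, 6.38, 6.15 and 9.08 CPM in del7 and 6.58, 8.27, 7.79 and 7.06 in del7_WT. Its 4 AUG libraries lay below all 4 AUG_WT libraries, although the highest of AUG (6.4) nearly met the lowest of AUG_WT (6.45). Hist1h2ak, which did not pass the filter, stood at 0.445, 0.736, 0.381 and 0.319 CPM in AUG and 21.5, 0.19, 0.682 and 0.0798 in AUG_WT. Hist1h2ak was at 0.632, 1.29, 0.576 and 0.995 CPM in del7 and 0.42, 0.279, 0.389 and 0.894 in del7_WT. It was at most 1.29 CPM except in AUG_WT replicate 1. Hist3h2a stood at 1.51, 1.05, 2 and 1.6 CPM in AUG and 2.17, 1.14, 2.05 and 1.6 in AUG_WT. Hist3h2a was at 2.13, 1.7, 1.63 and 1.62 CPM in del7 and 1.26, 1.49, 1.82 and 1.61 in del7_WT. All groups overlapped for Hist3h2a. The other tested H2A genes, Hist1h2ab, Hist1h2ac and Hist2h2ab, were at 0.858, 1.18 and 0.552 CPM pooled over the 15.

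Of the H2B genes 7 of 19 were tested. Hist1h2bc, the most counted histone gene, stood at 47.3, 46.5, 34.2 and 37.8 CPM in AUG and 26.7, 41.1, 46.1 and 47.4 in AUG_WT. Hist1h2bc was at 37.4, 47.9, 34.6 and 36 CPM in del7 and 43.2, 48.8, 46.5 and 52.2 in del7_WT. On TMM-scaled CPM AUG_WT replicate 1 was here the lowest of the 16. As a share of gene counts it was not, with 381 of 10569373 there and 359 of 10428134 in AUG replicate 3. Hist2h2bb stood at 5.42, 4.94, 5.61 and 2.55 CPM in AUG and 22, 1.04, 2.96 and 2.31 in AUG_WT. Hist2h2bb was at 3.79, 2.18, 4.32 and 2.49 CPM in del7 and 2.66, 1.67, 4.54 and 2.33 in del7_WT. AUG replicates 1, 2 and 3 were above the other libraries except AUG_WT replicate 1. The counts of Hist2h2bb are uncertain, since every 50-base window of its annotated transcript also lies in another annotated gene (Gm20628). Hist1h2bb stood at 2.31, 2.31, 2.19 and 2.39 CPM in AUG and 21.2, 1.42, 2.5 and 2.63 in AUG_WT. Hist1h2bb was at 2.92, 1.53, 2.59 and 3.48 CPM in del7 and 1.75, 1.77, 3.89 and 3.4 in del7_WT. The groups overlapped once AUG_WT replicate 1 was set aside. Hist1h2be, Hist1h2bg, Hist2h2be and Hist1h2bk were at 2.55, 1.8, 2.75 and 0.576 CPM pooled over the 15.

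H3 and H4 pair at the centre of the nucleosome. Of the H3 genes 4 of 12 were tested. Hist1h3e stood at 6.05, 4.31, 5.33 and 3.67 CPM in AUG and 27.8, 3.79, 4.21 and 3.75 in AUG_WT. Hist1h3e was at 3.56, 4.52, 3.17 and 4.73 CPM in del7 and 3.01, 4.27, 6.1 and 7.06 in del7_WT. The 15 libraries ran together from 3.01 to 7.06 CPM. Hist1h3f stood at 1.6, 2.1, 2.28 and 1.44 CPM in AUG and 15.2, 2.09, 1.02 and 1.36 in AUG_WT. Hist1h3f was at 1.74, 2.02, 1.92 and 2.12 CPM in del7 and 1.05, 1.95, 1.56 and 2.41 in del7_WT. Again 1 library was far above the rest. Hist2h3b, which like Hist2h2bb shares every 50-base window with Gm20628, stood at 2.22, 1.89, 1.62 and 1.76 CPM in AUG and 6.24, 1.42, 2.27 and 2.55 in AUG_WT. Hist2h3b was at 0.869, 1.78, 1.83 and 2.99 CPM in del7 and 0.771, 1.95, 1.3 and 2.77 in del7_WT. Hist1h3a, the last of the tested H3 genes, was at 1.18 CPM pooled over the 15.

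H4 had 10 of 13 genes tested, the most of any class. Hist1h4d stood at 28.5, 25.1, 30.3 and 23.9 CPM in AUG and 55.9, 24.1, 28 and 29.1 in AUG_WT. Hist1h4d was at 22, 24.2, 26.3 and 29.6 CPM in del7 and 22.8, 22.3, 32.7 and 31.2 in del7_WT. It was among the steadiest, with an SD of 13% of the mean over the 15. Hist1h4c stood at 26, 16.6, 26.6 and 29.9 CPM in AUG and 30.2, 19.7, 28.9 and 29.5 in AUG_WT. Hist1h4c was at 25.1, 13.7, 38.4 and 32.6 CPM in del7 and 17.4, 14.8, 24 and 28.5 in del7_WT. Hist1h4c was lowest in replicate 2 of each group. Hist1h4h stood at 21.4, 21.9, 29.3 and 29.5 CPM in AUG and 32.6, 15.5, 24.7 and 32.6 in AUG_WT. Hist1h4h was at 15.7, 18.5, 26.6 and 35.5 CPM in del7 and 15.6, 19.8, 27.8 and 32.2 in del7_WT. For both genes AUG_WT replicate 1 lay within the range of the others. Summed over H4, the 7 libraries numbered 1 or 2, AUG_WT replicate 1 aside, were at 74.5 to 99.9 CPM and the 8 numbered 3 or 4 at 107 to 125 CPM. The labels do not say what the numbers mark, this was seen only after the values were, and it was not tested. The other tested H4 genes ran from 0.613 CPM (Hist1h4k) to 10.6 CPM (Hist2h4) pooled over the 15, with Hist1h4a, Hist1h4b, Hist1h4f, Hist1h4i and Hist4h4 between them.

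**Figure D2:**
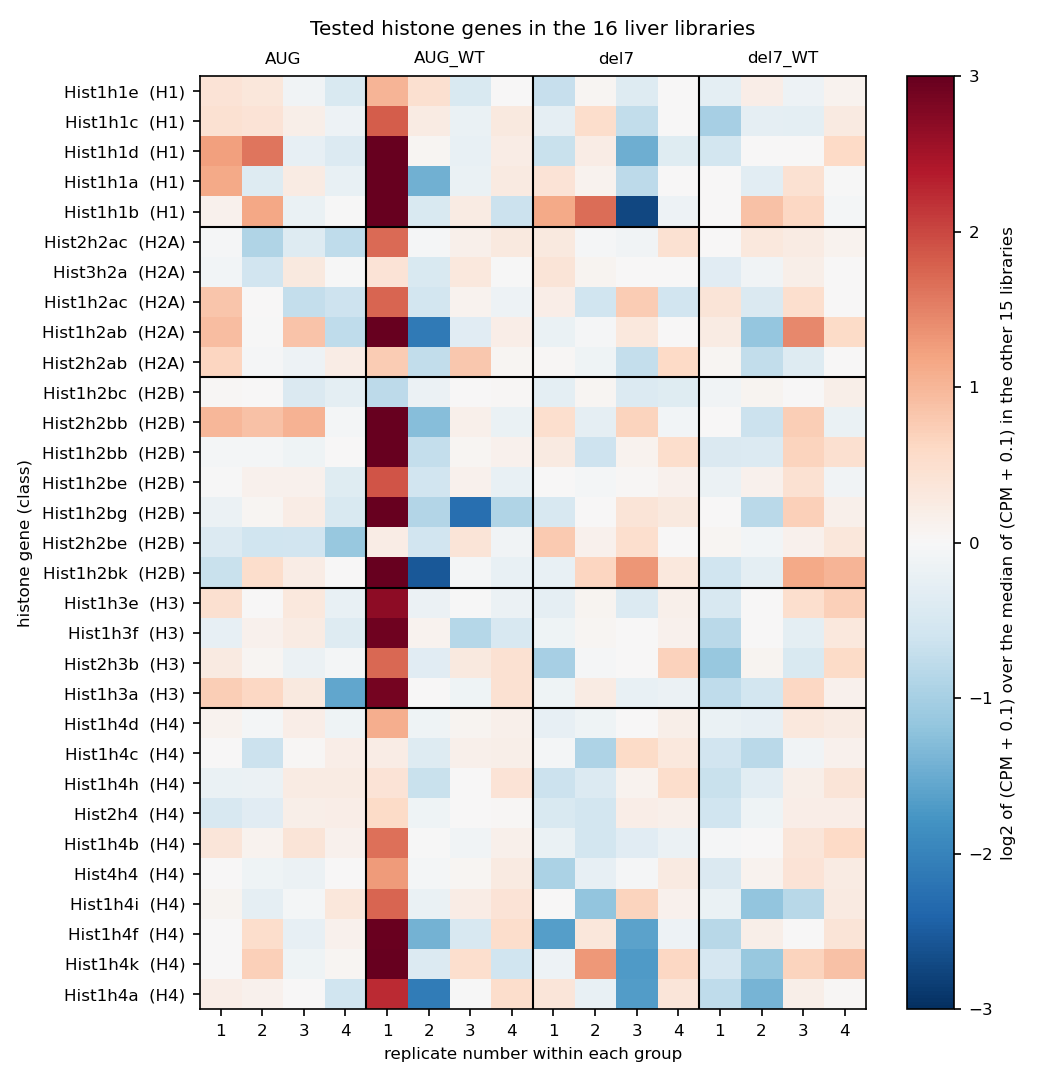
Each row is 1 of the 31 tested histone genes, each column a library, and the colour is log2 of (CPM + 0.1) over the median of (CPM + 0.1) in the other 15 libraries. AUG_WT replicate 1 is the highest of the 16 for 26 of the 31, while Hist1h2bc is lowest there.

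The AUG comparison asks whether the CUG/AUG genotype changes the liver transcriptome. With all 16 libraries, 30 of 31 tested histone genes had a log2 fold change below 0 in AUG against AUG_WT (56.2% of all 14421 tested genes did), with a median of -0.73 against -0.04 over all genes, and none passed the test (edgeR quasi-likelihood, smallest Benjamini-Hochberg adjusted p = 0.561; 0.0277% of genes were called). DESeq2 called 0 members as well, with 12 genes called in all, and gave no adjusted p for 16 members. At an unadjusted p under 0.05, 7 were lower (7.37% of all genes were) and 0 higher (1.44%). With 1 library left out, 31 to 34 members were tested. That lower count was then 2 without AUG_WT replicate 1 (3.34% of all genes). It was 20, 14 and 15 without AUG_WT replicates 2, 3 and 4 (8.86%, 10.8% and 11.8% of all genes). Without any other library it was 4 to 8 (4.49% to 6.86%). The lower values in AUG depend on AUG_WT replicate 1, as given below. In whole tissue, the number of dividing cells and the histone RNA per cell cannot be told apart in any group.

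By class, the H1 log2 fold changes in AUG were -3.88 for Hist1h1b (SE 1.34, the widest range of any member), -1.42 for Hist1h1a, -1.08 for Hist1h1d, -0.54 for Hist1h1c and -0.28 for Hist1h1e. Among H2A, Hist1h2ab was at -1.34, Hist2h2ac at -1.21, Hist1h2ac at -0.64, Hist3h2a at -0.17 and Hist2h2ab at -0.16. For H2B they were -2.44 for Hist1h2bk, -1.60 for Hist1h2bb, -1.49 for Hist1h2bg, -0.72 for Hist1h2be, -0.71 for Hist2h2be, -0.63 for Hist2h2bb and 0.04 for Hist1h2bc, the only member above 0. H3 genes lay between -1.42 (Hist1h3f) and -0.75 (Hist2h3b), with Hist1h3a at -1.24 and Hist1h3e at -1.04. H4 genes lay between -2.57 (Hist1h4k) and -0.05 (Hist1h4h). Class medians were -1.08 for H1, -0.64 for H2A, -0.72 for H2B, -1.14 for H3 and -0.49 for H4.

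Hist2h2ac had the smallest p. Its mean was 4.69 ± 1.33 CPM in AUG (SD, n = 4) and 10.8 ± 7.12 CPM in AUG_WT (SD, n = 4), or 7.29 ± 0.847 CPM over the 3 AUG_WT libraries other than replicate 1. The edgeR log2 fold change was -1.21 (SE 0.33, adjusted p = 0.561). It was the 1 member of 31 whose AUG libraries all lay below all AUG_WT libraries (1.2% of all genes did), and 0 members lay wholly above (0.853% of genes). With AUG_WT replicate 1 set aside it was again the 1 member wholly below (3.13% of genes), and 1 member, Hist1h2bg, lay wholly above (2.34%).

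These values rest on AUG_WT replicate 1. Without it, 32 members were tested, the median turned to 0.13 (9 below 0, 23 above; 47.5% of 14582 genes were below 0), and 0 were called by edgeR (smallest adjusted p = 0.764; 0.0274% of genes called). At an unadjusted p under 0.05, 2 were lower (3.34% of genes were) and 2 higher (2.58%). The lower were Hist2h2ac at -0.62 (SE 0.21) and Hist2h2be at -0.61 (SE 0.28), which start back to back in the Hist2 cluster. The higher were Hist1h2bg at 1.22 (SE 0.41) and Hist2h2bb at 1.16 (SE 0.40). Hist1h1b moved from -3.88 to 0.74, Hist1h1d from -1.08 to 0.80 and Hist1h3f from -1.42 to 0.32. Of the 31 members, 23 changed sign. Class medians were then 0.66 for H1, 0.09 for H2A, 0.20 for H2B, 0.32 for H3 and 0.05 for H4.

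**Figure D3:**
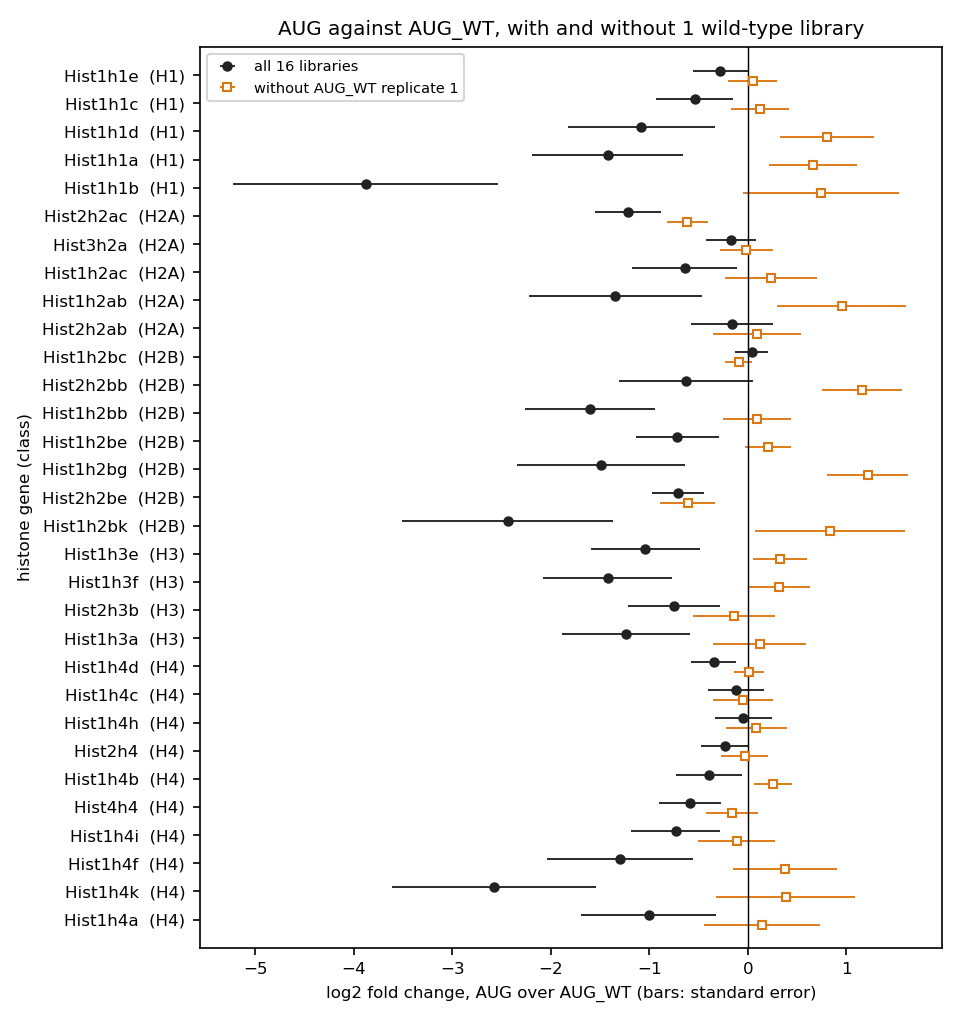
Log2 fold change of AUG over AUG_WT (horizontal axis, bars are standard errors) for the 31 tested histone genes, with all 16 libraries (filled) and without AUG_WT replicate 1 (open). With all libraries 30 of 31 points lie below 0; without the library most lie near or above 0, and Hist2h2ac and Hist2h2be stay at -0.62 and -0.61.

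The del7 comparison asks the same of the 7-nucleotide loss. Here 16 of 31 members had a log2 fold change below 0 (49.9% of all genes), the median was -0.0028, against 1.39e-04 over all genes, and the range was -0.58 to 0.42. edgeR called 0 members at an adjusted p under 0.05 (0% of genes), and 0 had an unadjusted p under 0.05 in either direction (0.742% of genes lower, 1.18% higher). DESeq2 called 0 members, with 1 gene called in all. The lowest was Hist1h4b at -0.58 (SE 0.34), the 1 member whose del7 libraries (2.58 to 3.36 CPM) all lay below those of del7_WT (3.71 to 5.81 CPM; 1.61% of all genes did), and 0 lay wholly above (2.41%). The highest was Hist1h4i at 0.42 (SE 0.46). Class medians were -0.05 for H1, -0.0028 for H2A, -0.02 for H2B, 0.07 for H3 and -0.04 for H4. Hist1h1d was at -0.52 (SE 0.79), Hist1h1c at 0.21 (SE 0.40) and Hist1h2bc at -0.29 (SE 0.17). The side of 0 depended on single libraries: 8 of 34 members were below 0 with a median of 0.15 without del7_WT replicate 3, and 21 of 34 with a median of -0.07 without del7_WT replicate 1. Over all genes the medians were then 0.0083 and 0.0025. AUG_WT replicate 1 enters this comparison only through the filter, the scaling and the shared estimate of spread. Without it 17 of 32 members were below 0 (52.2% of genes), edgeR called 0 (0% of genes), and at an unadjusted p under 0.05 there were 2 lower, Hist1h4b at -0.59 (SE 0.18) and Hist1h2bc at -0.30 (SE 0.13), and 0 higher (2.12% and 3.22% of genes).

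The difference of the 2 mutant effects (AUG effect minus del7 effect) had a median of -0.76 over the members, with 29 of 31 below 0 (54.9% of all genes), and 0 were called by edgeR (smallest adjusted p = 0.864; 0.00693% of genes called). At an unadjusted p under 0.05, 3 were lower (4.29% of all genes), Hist2h2be, Hist2h2ac and Hist1h1b, and 0 higher (0.922%). Between the wild-type groups, AUG_WT against del7_WT, 2 of 31 lay below 0 (44.6% of all genes), with a median of 0.97, and edgeR called 0 (smallest adjusted p = 0.311; 0.0347% of genes called). Of these, 8 were higher at an unadjusted p under 0.05 (9.23% of all genes) and 0 lower (2.57%), led by Hist1h1b at 3.84, and 0 members lay wholly below or above (1.53% and 2% of genes). Both medians turned sign without AUG_WT replicate 1, to 0.14 and -0.10. Without it 10 of 32 members were below 0 in the difference (47.4% of genes), 0 were called (0.0137%), and at an unadjusted p under 0.05 there were 2 lower, Hist2h2be and Hist2h2ac, and 2 higher, Hist1h4b and Hist1h2bg (1.59% and 1.43%). Between the wild types 21 of 32 were then below 0 (50.9% of genes), 0 were called (0.0686%), 1 was lower at an unadjusted p under 0.05 (3.52%), Hist1h2bg, also the 1 member wholly below (3.22%), and 0 were higher (3.95%) or wholly above (4.54%). With 1 other library left out, 3 to 8 members were lower in the difference (2.82% to 8.2% of all genes). Between the wild types 4 to 20 were then higher (6.61% to 12.6% of all genes). These comparisons share the AUG_WT libraries with that of AUG.

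AUG_WT replicate 1 held more of nearly all members, so it is described gene by gene as a single library, with no replicate of its state. It had the highest CPM of the 16 for 26 of 31 tested members (28.9% of all tested genes) and for 51 of the 59 detected (25.6% of all 28902 genes with a count). It was at least 2-fold above the pooled level of the other 15 for 24 of 31 (14.4% of all tested genes). Ratios below are its CPM over that pooled CPM, with 95% exact binomial intervals that cover counting error only. TMM scaling lowers the CPM of this library relative to plain shares of gene counts, and the intervals leave that out. Summed over members, it was at 889 CPM against a median of 262 CPM in the 15. As a share of gene counts it was at 0.120% against a median of 0.0250%.

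Medians of these ratios were taken over members with at least 15 counts in all 16 libraries together. AUG_WT replicate 1 is among those, so some members pass through it, such as Hist1h2an with 41 of its 53 counts there. This can raise the medians. The medians were 10.3 for the 5 of H1, 13.3 for 12 of H2A, 10.5 for 15 of H2B, 23.1 for 11 of H3 and 3.05 for 11 of H4. In H1, Hist1h1b was 55.6 (95% interval 45.8 to 68) times as high (608 counts, against 125 in the 15 libraries together), the largest ratio of any member with counts in both. Hist1h1a and Hist1h1d followed at 10.5 and 10.3, Hist1h1c at 3.51 and Hist1h1e at 2.07. Among H2A, Hist1h2ak reached 39.3 (95% interval 31 to 50.4) and Hist2h2ac 3.24 (95% interval 2.85 to 3.68). Among H2B, Hist1h2bl reached 32 (95% interval 24.3 to 42.7) and Hist1h2bm 31.1 (95% interval 23.9 to 40.8). In H3, Hist1h3g was at 37.8 (95% interval 24.9 to 58.9) on 99 counts against 30 in the 15 together, Hist1h3c at 32.9 (95% interval 26.4 to 41.4) and Hist1h3e at 6.27 (95% interval 5.54 to 7.1). H4 genes ranged from 1.23 (95% interval 1.11 to 1.36) for Hist1h4c to 23.4 (95% interval 17.4 to 31.6) for Hist1h4j.

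The 6 members that led per kilobase in the 15 libraries had ratios below most others. The ratios were 3.51 for Hist1h1c, 2.12 for Hist1h4d, 2.07 for Hist1h1e, 1.36 for Hist1h4h, 1.23 for Hist1h4c and 0.619 (95% interval 0.557 to 0.687) for Hist1h2bc. The TMM-scaled CPM of Hist1h2bc was lower in AUG_WT replicate 1 than pooled over the 15. Hist2h2be (1.17), Hist3h2a (1.35) and Hist2h4 (1.6) also had ratios under 2. Members scarce in the 15 libraries included those with the highest ratios. The pooled level of the 15 is also the divisor of the ratio, so part of both patterns can follow from the arithmetic. The order by level differed: per kilobase Hist1h1c (71.7 CPM per kb) and Hist1h4h (69.4) were followed in AUG_WT replicate 1 by Hist2h2bb (57.8), Hist1h1b (57.4) and Hist1h2ak (54.6). As shares of histone counts, H3 was 13.3% there and 4.46% in the other 15 pooled, H2A 9.62% and 4.82%, H1 34.9% and 29.7%, H2B 18.3% and 22.7%, and H4 23.8% and 38.4%.

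**Figure D4:**
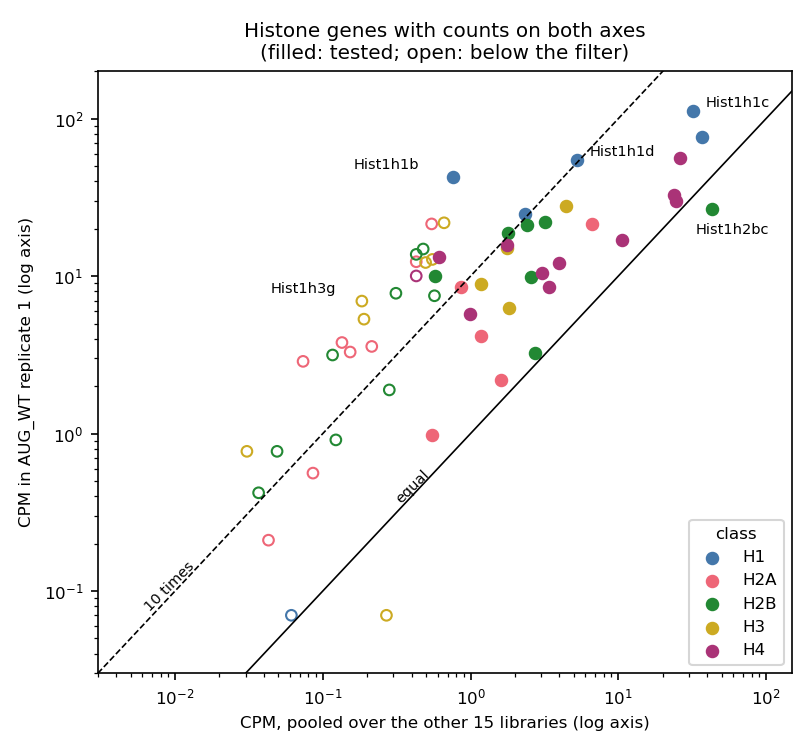
CPM in AUG_WT replicate 1 (vertical, log axis) against CPM pooled over the other 15 libraries (horizontal, log axis) for histone genes with counts in both; filled points were tested. The solid line marks equal levels and the dashed line a ratio of 10; Hist1h1b lies at 55.6 times and Hist1h2bc, at 0.619 times, lies below the line of equality.

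The ratio was also set beside the annotated 3′ ends, over members with at least 15 counts by the rule above and as a description. Its median was 11.6 for the 16 members whose transcript ends within 100 bases of the loop (1.36 to 37.8), 3.88 for the 21 that run on (0.26 to 28.1) and 21.5 for the 17 with no match (0.619 to 55.6). The ranges overlapped. The lowest ratio, of Hist2h3c2, was 0.26 (95% interval 0.00644 to 1.53) and rests on 1 count in AUG_WT replicate 1. By cluster, the median ratio over the same members was 10.5 for Hist1 over 43, 1.78 for Hist2 over 7, 7.44 for Hist3 over 3 and 2.54 for Hist4h4, the lone Hist4 gene. The Hist3 median is the value of the pseudogene Hist3h2bb-ps, on 33 counts in all.

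The 28 members detected but not tested had 1 to 419 counts each over the 16 libraries. AUG_WT replicate 1 held 2413 of their counts and the other 15 together 1135, and it was the highest library for 25 of the 28. The filter asks for a sufficient level in at least 4 libraries, so members high in 1 library alone fall into this set. The 25 of 28 is therefore partly set by the filter and was not compared with untested genes at large. Each of the other 15 libraries had a count for 47 to 55 members (median 51), and AUG_WT replicate 1 for 58.

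A further 10 members had 0 counts in all 16 libraries: Hist1h2aa, Hist1h2ao, Hist1h2ap, Hist2h2aa1, Hist1h2ba, Hist1h2bq, Hist1h2br, Hist2h3c1, Hist1h4m and Hist1h4n. Only reads with 1 place of alignment are counted, and near-identical copies share sequence. Of the 50-base windows of the longest transcripts of these 10, a median of 8.56% (0% to 76.2%) occurred in no other gene. For detected members the median was 50.7%. The medians for detected members by class were 98.9% for H1, 32.9% for H2A, 55.5% for H2B, 39.6% for H3 and 71.1% for H4. For 8 of the 10 that share was at most 14.4%, and their 0 counts say little of their RNA, since reads that copies share are counted for neither. Hist1h2aa and Hist1h2ba, at 76.2% and 61.8%, had as much sequence of their own as many detected members, and no read was counted for them. Multimapping reads made up 9.23% to 15% of a library, the lowest share being that of AUG_WT replicate 1. Reads that fell in no annotated gene made up 35.0% of that library and 21.8% to 29.4% of the others. The reason was not tested.

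Genes that act with the histone genes were read from lists. AUG_WT replicate 1 was the highest of the 16 for 28.9% of all tested genes and 25.6% of all genes with a count. A list with a share near these says little. Of 29 S-phase and DNA replication genes 24 were highest in AUG_WT replicate 1, with a sum of 565 CPM against 168 to 213 CPM in the others. The group ranges without it were 181 to 213 in AUG, 168 to 192 in del7 and 176 to 189.9 in del7_WT. All 20 of the G2 and mitosis genes were highest there (577 CPM against 14.4 to 37.9 CPM), Mki67, a marker of dividing cells, at 228 CPM against 4.04 to 20.8 CPM and Top2a, a DNA topoisomerase, at 104 CPM against 1.44 to 5.37 CPM. Of 14 T and NK markers 12, of 15 B and plasma cell markers 14, of 11 Kupffer and macrophage markers 7 and of 12 hepatocyte markers 0 were highest in this library. The part of these cells in the histone values was not tested. For other cell types a liver holds, 8 of 10 neutrophil (43.6 CPM against 3.24 to 17.4 CPM), 2 of 6 cholangiocyte (131 CPM against 20.2 to 76.2 CPM), 1 of 8 endothelial and 0 of 10 erythroid markers were highest there. Of the 164 tested genes of all 14 lists, edgeR called 0 at an adjusted p under 0.05 in each of the 4 comparisons (0% to 0.0347% of all genes were called). At an unadjusted p under 0.05, 44 were lower and 1 higher in AUG (7.37% and 1.44% of all genes), and 0 lower and 9 higher in del7 (0.742% and 1.18%). Without AUG_WT replicate 1, 0 of 167 tested were called in any of the 4 (0% to 0.0686% of all genes). At an unadjusted p under 0.05, 11 were then lower and 6 higher in AUG (3.34% and 2.58% of all genes). In del7 1 was lower and 16 were higher (2.12% and 3.22%). The S-phase median in AUG went from -0.69 to 0.15 and the mitosis median from -2.56 to 0.17 when that library was left out.

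Genes that control histone genes were closer to the other libraries. The counts of genes highest in AUG_WT replicate 1 again stand beside 28.9% of all tested genes and 25.6% of all genes with a count. Of 9 genes of histone transcription 5 were highest in AUG_WT replicate 1 (299 CPM against 231 to 291 CPM), including Npat, the coactivator of histone genes, at 27.1 CPM against 10.7 to 16.5 CPM, Nfya, an NF-Y subunit, at 34 CPM against 12.3 to 21.3 and Casp8ap2, a partner of Npat, at 30.8 CPM against 11 to 17.1. Hinfp, which binds H4 promoters, was at 21.6 CPM against 14.9 to 28.8 CPM, and Pou2f1 at 52.2 CPM against 27.6 to 48.5. Of 22 genes of 3′ end processing and decay 9 were highest (897 CPM against 756 to 852 CPM). Slbp was at 20.6 CPM against 7.78 to 11.5 CPM and the exonuclease gene Eri1 at 26.8 CPM against 12 to 17.8, while Lsm10 and Lsm11, of the U7 particle that guides the cut, were at 5.05 CPM against 6.65 to 10.9 and 5.82 CPM against 4.23 to 7.61. In AUG against AUG_WT none of the 2 lists' 30 tested genes passed in edgeR (0.0277% of all genes did). The list medians were -0.09 and -0.05 and turned to 0.14 and 0.04 without AUG_WT replicate 1. In del7 against del7_WT none passed (0% of all genes did), with medians of 0.09 and -0.01.

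Chaperones carry histones to DNA, and 13 of 19 were highest in AUG_WT replicate 1 (1008 CPM against 609.7 to 737 CPM). That library was highest for 28.9% of all tested genes and 25.6% of all genes with a count. Chaf1a, of the assembly factor CAF-1, was at 14.5 CPM against 0.718 to 2.31 CPM, Asf1b at 6.24 CPM against 0.0798 to 3.11 and Nap1l1 at 129 CPM against 32.3 to 42.4. Of 11 genes listed as histone variants 6 were highest (365 CPM against 289.8 to 363 CPM). H2afx, the variant that is phosphorylated at DNA breaks, was at 29.5 CPM against 3.11 to 12.1 CPM and Cenpa, the centromeric H3, at 14.6 CPM against 3.38 to 7.58. The linker variant H1f0, typical of resting cells, was lower there, at 54.6 CPM against 80.2 to 129 CPM. H1f0 stood above each single replication-dependent histone gene in the other 15 libraries by CPM, a comparison not corrected for length. In AUG against AUG_WT the median log2 fold change was -0.09 for chaperones (15 of 18 below 0) and -0.16 for variants (8 of 10). Of all tested genes 56.2% were below 0. None of the 28 tested genes of these lists passed in edgeR (0.0277% of all genes did). Without AUG_WT replicate 1 the median was 0.10 for chaperones, with 1 of 18 below 0, and -0.11 for variants, with 7 of 10 below 0. Of all genes 47.5% were then below 0. Again 0 of these genes passed (0.0274% of all genes did).

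**Figure D5:**
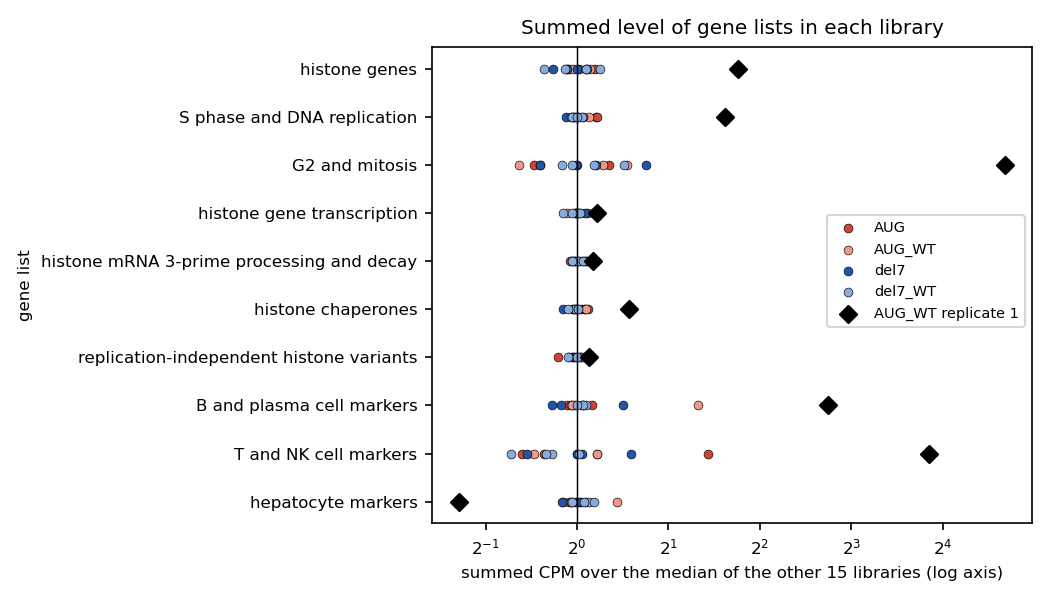
Summed CPM of 10 gene lists in each library, over the median of the other 15 libraries (log axis); diamonds are AUG_WT replicate 1 and circles the other libraries by group. The diamond lies far right of the circles for the 69 histone genes (889 CPM against 204 to 313), S-phase and mitosis genes and lymphocyte markers, close to them for transcription, processing and variant lists, and left of them for hepatocyte markers.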

How the data were processed

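Liver RNA of 16 samples was sequenced in 4 groups of 4. Per the labels' protocols, total RNA was DNase-treated, depleted of ribosomal RNA and made into directional libraries. The submitters' processing notes name cutadapt 2.10, STAR 2.7.9a and the build GRCm39, while no annotation release is named in what was used here. The authors deposited raw read counts for each gene, as whole numbers. In 16 of 16 samples the series table held the same values as the per-sample reverse-strand counts. Reads from histone genes on the other strand were 0.126% to 0.778% of those on both.

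Symbols came from GENCODE M21 (52081 of 55357 genes named), which is on GRCm38, so it served only for names, chromosomes and transcript sequences, and promoter coordinates are those of RefSeq GRCm38.p6. The members and lists were chosen with earlier results of these data known. Every tested member is named, and the 3 of each class with the highest mean CPM are given in all libraries.

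The tests used edgeR 4.0.16 under R 4.3.3 (filterByExpr with a minimum count of 10, TMM, a group-means model of all 16 libraries, glmQLFit and glmQLFTest, two-sided), with Benjamini-Hochberg adjustment over 14421 genes and a threshold of 0.05. The pipeline was tested on simulated data. Alternatives were RLE size factors, no filter, DESeq2 1.42.0, the unstranded counts, only the groups compared, a replicate block and each library left out. The precision of a ratio follows its counts, so ratios are summarised over members with at least 15 in all 16 libraries together.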

Additional observations from a re-analysis of the deposited data

Results flagged for a closer look

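A library was marked when, among the 4 of its group, its gap to the nearest, as a share of the group's range, exceeded Dixon's 95% critical value. This was checked for the histone share, 5 class sums and 15 members in 4 groups, 84 in all, and chance marks about 1 in 20. The 15 members were chosen by mean CPM over all 16 libraries, AUG_WT replicate 1 included. Hist1h2ak, at most 1.29 CPM in the others, was chosen only through its level in that library. Its mark therefore follows from the choice, and the rate of 1 in 20 does not apply to it. AUG_WT replicate 1 accounted for 14 of 18: the histone share at 0.12% of gene counts, the summed CPM of H1 at 310, H2A at 85.5, H2B at 163 and H3 at 118, and the CPM of Hist1h1c at 112, Hist1h1d at 54.8, Hist2h2ac at 21.5, Hist1h2ak at 21.5, Hist2h2bb at 22, Hist1h2bb at 21.2, Hist1h3e at 27.8, Hist1h3f at 15.2 and Hist1h4d at 55.9. The other 4 were high values of H2B in del7 replicate 2 (summed CPM 64.2) and Hist3h2a in del7 replicate 1 (2.13 CPM), and low values of H3 in AUG replicate 4 (summed CPM 9.18) and Hist1h4c in AUG_WT replicate 2 (19.7 CPM).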

How the results depend on the processing

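The number of histone genes called was 0 in all 4 comparisons under each alternative run. With 1 library left out at a time, the median log2 fold change of the tested histone genes ranged from -1.13 to 0.13 for AUG against AUG_WT, from -1.12 to 0.14 for the difference of the mutant effects and from -0.10 to 1.28 for AUG_WT against del7_WT, each passing 0 only without AUG_WT replicate 1. For del7 against del7_WT it ranged from -0.07 to 0.15, on both sides of 0. Without a filter on low counts the first median was -1.36. Of the 31 members, 24 passed 0 with some library left out for AUG against AUG_WT (20 of them only without AUG_WT replicate 1) and 17 for del7 against del7_WT. Among the members given in all libraries, these ranges for AUG were -0.74 to 0.12 for Hist1h1c, -1.49 to 0.80 for Hist1h1d, -0.46 to 0.048 for Hist1h1e, -1.92 to 0.09 for Hist1h2bb, -0.10 to 0.13 for Hist1h2bc, -1.31 to 0.33 for Hist1h3e, -1.73 to 0.32 for Hist1h3f, -0.24 to 0.026 for Hist1h4c, -0.47 to 0.013 for Hist1h4d, -0.22 to 0.087 for Hist1h4h and -0.97 to 1.16 for Hist2h2bb. For del7, among the most abundant member of each class, they were -0.18 to 0.0042 for Hist1h4d and -0.12 to 0.073 for Hist2h2ac, and the latter was 2.4e-05 with only those 2 groups fitted. The cause was not tested beyond the library left out.

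Replicate numbers are shared by the groups, but same-numbered libraries correlated at -0.157 to 0.351 (AUG with AUG_WT), 0.092 to 0.283 (del7 with del7_WT) and -0.070 to 0.057 (the wild types), so they were not taken as pairs. With the replicate block 0 members were called, and the medians were -0.64 for AUG, -0.05 for del7, -0.47 for their difference and 0.63 for the wild types. RLE scaling shifted the median of all genes by at most 0.011. Members with few counts limit what the depth can show.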
